A study of Mus musculus with 7 samples.

Results

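The Serpin family was examined in peak lists of 3 nuclear receptors from mouse liver. These receptors are the retinoic acid receptors RARα and RARβ and their partner, the retinoid X receptor RXRα. The family was taken as every protein-coding gene of the mouse build GRCm38 (mm10) whose symbol begins with Serpin, which gave 63 of the 21536 protein-coding genes whose strand was known. Of these, 24 belonged to clade A, 28 to clade B and 11 to clades C to I, the clade being the letter that follows the family name. A peak was assigned to a gene when its midpoint lay within 10 kb of the gene start, the outermost start of the gene span on its strand. A gene with such a peak is called bound here, which is a statement about position and not about regulation.

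The data came from chromatin immunoprecipitation followed by sequencing (ChIP-seq) of livers of male C57BL/6 mice at 3 months of age, with no genetic change named. There were 6 peak lists, 1 library for each receptor on control diet and 1 on a diet containing retinoic acid (RA), the ligand of the RARs. GEO's labels give RA for 1 day and the study's methods give a longer feeding, so the duration is not settled. A further library of input chromatin came without a peak list. Whole liver was used, so binding in hepatocytes and in the other liver cells cannot be told apart. With 1 library per receptor and diet there is no replicate check, no test was possible, and every difference below describes these libraries. Intervals in the text are Wilson 95% intervals, which cover counting error only. Peak lists carry no read totals, so depth is unknown and a gene without a peak is one that was not detected at that depth.

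Serpins are named for their inhibition of serine proteases. An inhibitory serpin presents an exposed loop as bait, and once the protease cuts it the serpin changes shape and traps the enzyme. Hepatocytes secrete many clade A members and several members of the other clades into plasma, where they control coagulation, fibrinolysis, complement and leukocyte proteases, whereas clade B members mostly act inside cells. RXRα binds DNA as a dimer with the RARs and with many other nuclear receptors, and each receptor of a dimer contacts a short motif of 6 bases related to AGGTCA.

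The promoter sequences shown here are the ones on which the later values turn. They come from the RefSeq promoter table of GRCm38.p6, run 5′ to 3′ on the strand of the gene, and are numbered from -1, the last base before the start. The first 5 are the α1-antitrypsin genes Serpina1a to Serpina1e on chromosome 12, shown because the copies differed in the peak lists although their promoters hold a common run of 55 bases, given in capitals. The windows lie on the minus strand at chr12:103863620-103863699, chr12:103738190-103738274, chr12:103904951-103905036, chr12:103773634-103773708 and chr12:103956940-103957034 in that order.
Serpina1a: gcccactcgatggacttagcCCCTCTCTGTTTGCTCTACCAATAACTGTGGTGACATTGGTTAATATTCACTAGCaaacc
Serpina1b: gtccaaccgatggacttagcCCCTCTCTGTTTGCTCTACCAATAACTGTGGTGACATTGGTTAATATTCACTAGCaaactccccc
Serpina1c: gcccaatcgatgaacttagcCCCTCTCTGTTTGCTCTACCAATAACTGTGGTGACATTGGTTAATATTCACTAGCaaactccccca
Serpina1d: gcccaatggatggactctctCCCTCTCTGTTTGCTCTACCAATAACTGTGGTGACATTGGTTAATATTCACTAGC
Serpina1e: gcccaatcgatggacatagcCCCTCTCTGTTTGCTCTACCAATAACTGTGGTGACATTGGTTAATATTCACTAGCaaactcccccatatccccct
The common run began at position -60 in Serpina1a, -65 in Serpina1b, -66 in Serpina1c, -55 in Serpina1d and -117 in Serpina1e.

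The next 4 promoters are shown whole, 250 bases each, with receptor hexamers in capitals. The hexamers were searched on both strands. They were AGGTCA (which reads TGACCT on the other strand), then AGTTCA (which reads TGAACT), then GGGTCA (which reads TGACCC) and lastly GGTTCA (which reads TGAACC). Serpinf2 (chr11:75439502-75439751, minus strand) is shown because it lay near the highest-scoring Serpin peaks. Serpind1 (chr16:17331121-17331370, plus strand) had a peak at its start in each of the 6 lists, and Serpina7 (chrX:139085237-139085486, minus strand) had peaks in the RXRα lists alone. Serpina1f (chr12:103695530-103695779, minus strand) held the 1 direct repeat of such hexamers found in a Serpin promoter.
Serpinf2: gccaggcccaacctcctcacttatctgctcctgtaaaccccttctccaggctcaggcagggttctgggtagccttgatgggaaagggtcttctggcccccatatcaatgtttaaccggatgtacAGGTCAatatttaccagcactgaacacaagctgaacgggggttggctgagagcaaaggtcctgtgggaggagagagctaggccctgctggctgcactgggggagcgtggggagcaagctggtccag
Serpind1: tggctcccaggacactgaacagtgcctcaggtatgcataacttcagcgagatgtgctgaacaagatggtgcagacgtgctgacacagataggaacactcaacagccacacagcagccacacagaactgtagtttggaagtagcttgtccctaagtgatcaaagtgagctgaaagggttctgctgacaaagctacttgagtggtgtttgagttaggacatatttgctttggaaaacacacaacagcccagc
Serpina7: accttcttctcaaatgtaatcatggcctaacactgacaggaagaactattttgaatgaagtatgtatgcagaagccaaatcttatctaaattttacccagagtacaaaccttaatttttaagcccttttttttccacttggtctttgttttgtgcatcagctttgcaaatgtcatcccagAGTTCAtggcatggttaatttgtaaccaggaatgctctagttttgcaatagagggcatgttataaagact
Serpina1f: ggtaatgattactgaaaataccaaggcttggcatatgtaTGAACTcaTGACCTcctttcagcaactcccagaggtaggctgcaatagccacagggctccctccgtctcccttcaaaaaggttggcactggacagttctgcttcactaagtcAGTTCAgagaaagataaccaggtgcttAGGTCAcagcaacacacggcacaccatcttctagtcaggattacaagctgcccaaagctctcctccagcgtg
Serpinf2 held 1 hexamer, starting at position -126, and Serpina7 held 1, starting at position -70. Serpind1 held 0 of these letters in this window. Serpina1f held 4, of which those starting at -211 and -203 form a direct repeat with 2 bases between them.

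As deposited, the RXRα lists held a peak near more Serpin genes than the shorter RARα and RARβ lists, and most unbound members belonged to clade B. Under the control diet, 24 of 63 Serpin genes were bound in the RARα list (38.1%, interval 27.1 to 50.4), 17 in the RARβ list (27.0%, 17.6 to 39.0) and 33 in the RXRα list (52.4%, 40.3 to 64.2). With RA, RARα bound 27 (42.9%, 31.4 to 55.1), RARβ bound 26 (41.3%, 30.0 to 53.6) and RXRα bound 30 (47.6%, 35.8 to 59.7). Over all protein-coding genes the bound share was 61.9% in the RARα control list and 63.3% in the RARα RA list, 44.1% and 54.7% for RARβ, and 61.3% and 61.7% for RXRα. The share of the family was below the share of all genes in each of the 6 deposited lists. With scores of at least 100 this direction held in each list, with RXRα at 47.6% against 49.1% on control diet and 44.4% against 51.4% with RA. Cutting the lists to equal length changed both the order and, for RXRα, the direction. With every list shortened to its 14968 highest-scoring peaks, RXRα bound 20 Serpin genes on control diet (31.7%, against 20.6% of all genes) and 17 with RA (27.0%, against 21.4%), above the share of all genes. RARβ then bound 17 under each diet (27.0%, against 44.1% and 40.7%), as many with RA as RXRα did, and RARα bound 10 and 14 (15.9% and 22.2%, against 47.1% and 43.2%).

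Clade B, the largely intracellular serpins, held most of the unbound genes. Of its 28 genes, 2 were bound by RARα on control diet and 4 with RA, 2 and 3 by RARβ, and 3 on each diet by RXRα. Some clade B genes are near-identical copies, and in the promoter windows of Serpinb9e, Serpinb9f, Serpinb3b and Serpinb3c 72.2%, 73.7%, 34.6% and 30.8% of the words of 35 bases, the read length, recurred at another Serpin. Whether reads were lost there was not tested, so for such copies the lack of a peak is not the lack of binding. Other unbound clade B genes, among them Serpinb5, Serpinb7 and Serpinb8, had 0 such words in their windows. Clade A, which holds the α1-antitrypsin and antichymotrypsin-related plasma proteins, had 14 of 24 genes bound in both RARα lists, 10 and 15 in the RARβ lists, and 20 and 18 in the RXRα lists, control first. Among the 11 genes of clades C to I, 8 and 9 were bound by RARα, 5 and 8 by RARβ, and 10 and 9 by RXRα. Without clade B, 30 of 35 members were bound in the RXRα control list (85.7%, 70.6 to 93.7) and 27 in the RXRα RA list (77.1%, 61.0 to 87.9). Leaving out the clade with most unbound genes raises the share by construction, while all genes keep their unbound members. The intervals also count neighbours that share a peak as separate genes, so they are descriptions only. The first interval lies above the share of all genes and the second contains it. In the RARα lists 22 (62.9%, 46.3 to 76.8) and 23 (65.7%, 49.2 to 79.2) of these 35 members were bound, and in the RARβ lists 15 (42.9%, 28.0 to 59.1) and 23 (65.7%, 49.2 to 79.2), and these 4 intervals also contain the share of all genes.

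**Figure D1:**
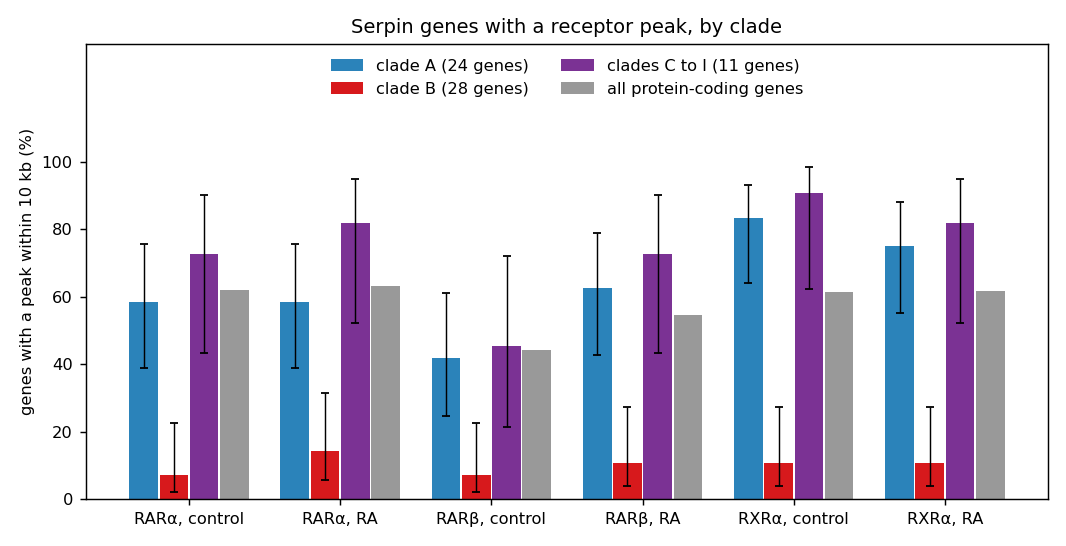
Share of Serpin genes with a peak midpoint within 10 kb of the start (vertical axis, percent) in each of the 6 lists, for clade A, clade B, clades C to I and all protein-coding genes, with Wilson 95% intervals on the Serpin bars. Clade B stays between 7.14% and 14.3% in every list, while all genes lie between 44.1% and 63.3%.

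By function, the counts are read against the shares of all genes given above. The 13 secreted clade A genes of liver were all bound in the RXRα control list and 12 of them in the RXRα RA list, the exception being Serpina3c. For RARα, 7 and 8 of these 13 genes were bound (53.8% and 61.5%, not above all genes), and for RARβ 7 and 11 (53.8% and 84.6%). The 8 inhibitors of coagulation, fibrinolysis and complement (among them Serpina5, Serpina10, Serpinc1, Serpind1, Serpine2, Serpinf2 and Serping1) were all bound in both RARα lists, both RXRα lists and the RARβ RA list, and 5 of them in the RARβ control list. Of 6 other secreted or chaperone serpins, 3 and 4 were bound by RARα, 2 and 3 by RARβ, and 5 and 4 by RXRα. The proteases that serpins inhibit were bound at 16 of 20 genes in both RARα lists, 11 and 16 in the RARβ lists, and 16 and 17 in the RXRα lists. As a check of the tissue, all 7 hepatocyte markers were bound in both RXRα lists, against 1 of 5 Kupffer cell, 1 of 5 stellate cell and 2 and 3 of 5 endothelial markers. The RARα lists did not show this order, with 3 and 5 of 7 hepatocyte markers, 4 and 5 of 5 endothelial, 2 and 2 of 5 stellate and 0 of 5 Kupffer cell markers. RARβ had 3 and 5 hepatocyte markers, 0 and 2 endothelial and none of the stellate or Kupffer cell markers. Of 6 genes known from other organs, RXRα had 3 and 4, RARα 3 and 3 and RARβ 1 and 1, so a peak near a start does not by itself mark a liver gene.

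Close to the start the family as a whole was again below the background. Within 1 kb, 15 Serpin genes (23.8%) were bound in the RARα control list and 16 (25.4%) in the RARα RA list, against 45.9% and 46.2% of all genes. For RARβ the numbers were 9 (14.3%) and 13 (20.6%), against 33.1% and 40.3%. For RXRα they were 23 (36.5%) and 20 (31.7%), against 40.1% and 41.9%, and these were the lists in which the family came nearest to all genes. In clade B, Serpinb6a, an inhibitor of cathepsin G, was the 1 gene bound within 1 kb of its outermost start in any list. The Serpinb9 region and the RARβ control peak of Serpinb6b lay over RefSeq promoter windows farther inside those genes.

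There were 13 Serpin genes bound in all 6 lists (20.6%, against 38.2% of all genes). Among them were Serpina1e, Serpina3a, Serpina3m, Serpina3n, Serpina5, Serpina6, Serpina12, Serpinb6a, Serpinc1, Serpind1, Serpinf2 and Serpini1. A further 26 (41.3%, against 28.2%) were bound in no list, of which 23 belonged to clade B. The 3 others were Serpina3i, Serpina3j and Serpini2, the last known from pancreas. Besides Serpinb6a, 4 clade B genes had a peak. These were Serpinb9, an inhibitor of granzyme B, in 5 lists, Serpinb1a, an inhibitor of neutrophil elastase, in 4, and Serpinb1b and Serpinb6b in 1 each. All of these counts use the outermost start.

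**Figure D2:**
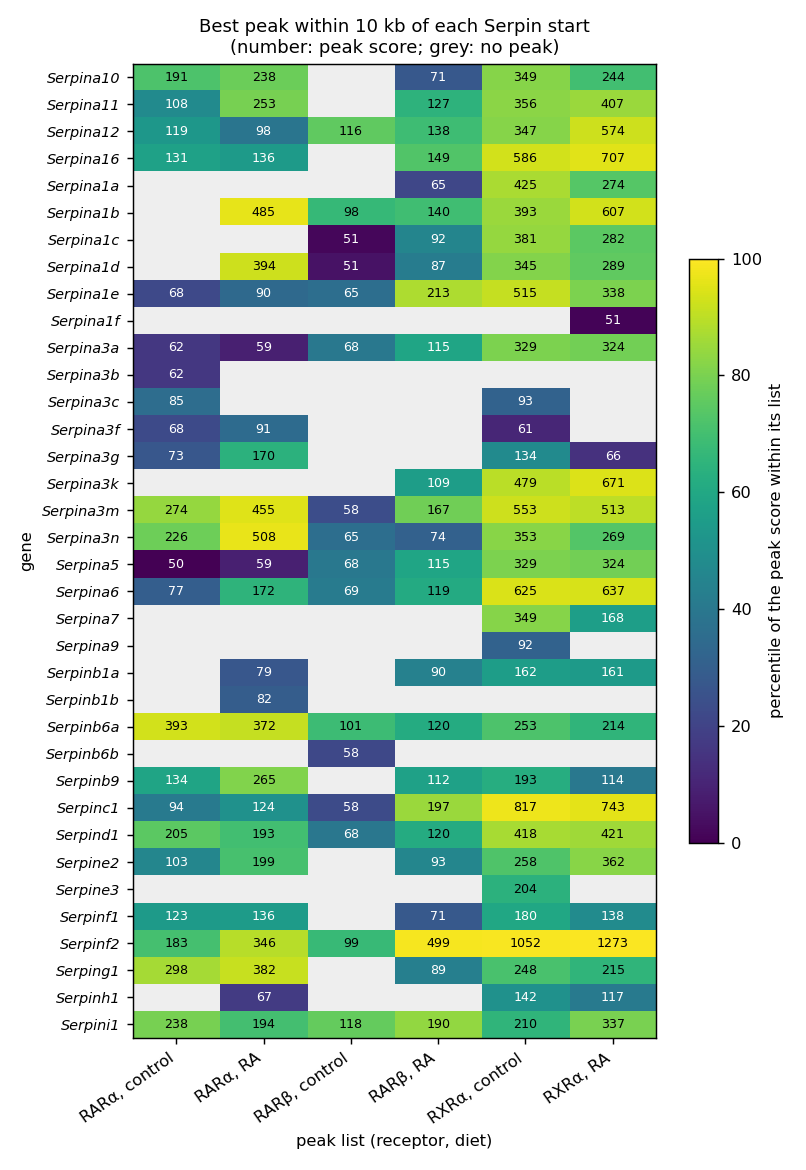
Highest peak score within 10 kb of the start of the named Serpin genes bound in at least 1 list (rows) in the 6 lists (columns), with the score printed and the colour giving the percentile of that score within its own list. Grey cells have no peak. Serpinf2 reaches 1052 and 1273 in the RXRα lists and 499 in the RARβ RA list.

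The score of a peak is the value of the peak caller, a multiple of the negative log10 of a p-value. It is not normalised between libraries, so each score is read beside its percentile within its own list, and scores of different lists are not compared by size. The highest Serpin peaks lay upstream of Serpinf2, which encodes α2-antiplasmin, the main inhibitor of plasmin. This region (chr11:75443496-75444479) was called in all 6 lists, with midpoints from 4387 to 4504 bp before the start. Its RXRα score was 1052 on control diet and 1273 with RA, at percentiles 98.9 and 99.4. Its RARα scores were 134 and 113, at percentiles 58.2 and 46.1. Its RARβ scores were 98.6 and 499, at percentiles 67.2 and 98.8. The site was thus among the top peaks of both RXRα lists and of the RARβ RA list, and an ordinary peak in both RARα lists. At the start of Serpinf2 itself, RARα had peaks of 183 and 346 and RXRα of 205 and 110. RARβ had 1 peak within 1 kb of this start on control diet, scoring below its upstream peak, and 0 with RA. The promoter printed above lies under the RXRα and RARα peaks at the start, and not in the upstream region.

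Serpinc1 encodes antithrombin, the chief plasma inhibitor of thrombin. Its highest peaks lay 8508 to 8996 bp after the start, inside the gene span, with RXRα scores of 817 and 743 (percentiles 97.4 and 96.0). RARα had 94.3 and 124 there, RARβ had 197 under RA (percentile 85.0), and the RARβ control list had no peak at that place. A weaker set of peaks covered the promoter, with RXRα scores of 173 and 357, RARα scores of 80.5 and 114, and a RARβ score of 123 under RA. Both sites were therefore called for RARβ in the RA list and not in the control list, where the 1 Serpinc1 peak lay 2315 bp after the start with a score of 58.0.

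Other plasma inhibitors were bound at the start. At Serpind1, the gene of heparin cofactor II, the 6 peaks that lay nearest had midpoints within 155 bp of the start. Their scores were 418 and 421 for RXRα, 205 and 193 for RARα, and 67.8 and 120 for RARβ. The percentiles of 86.7 and 85.8 for RXRα and 74.8 and 69.8 for RARα were close between diets. Those of RARβ were 39.7 on control diet and 61.5 with RA. At Serping1, the gene of C1 inhibitor, the RARα peaks ranked highest in their lists, with 298 and 382 (percentiles 86.4 and 91.7). RXRα reached 248 and 215 there (percentiles 71.3 and 65.3), and RARβ 89.4 under RA and no peak under the control diet. Serpina10, which encodes the protein Z-dependent inhibitor of factor Xa, was likewise bound by RARβ under RA alone. At its start RARα had 191 and 238, RXRα 349 and 115, and RARβ 66.4 under RA. Another site, 4320 to 4618 bp before the start, had RXRα at 263 and 244. Under RA it also had RARα at 68.4 and RARβ at 70.5. Serpine2, the gene of protease nexin-1, had RARα peaks of 103 and 199 at its start. Its RXRα peaks of 258 and 362 and its RARβ peak of 93.0 under RA lay 8134 to 8202 bp inside the gene. RARα was also called at that inner site, under RA alone.

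Hormone carriers of clade A were bound at several sites. Serpina6 encodes corticosteroid-binding globulin and had 6 RXRα peaks in each list. Its highest, 8370 bp before the start, scored 625 under the control diet, and its counterpart under RA, 8162 bp before the start, scored 637. RARβ was called at that site with RA, at 70.8, and RARα in neither list. At the Serpina6 promoter all the lists but RARβ control had a peak, with RARα at 77.1 and 172, RXRα at 96.3 and 215, and RARβ at 119 under RA. Serpina7 encodes thyroxine-binding globulin and lies on the X chromosome. Its RXRα promoter peaks scored 349 and 168, with midpoints 45 and 95 bp before the start, and neither RARα nor RARβ was called within 10 kb of it. The hexamer of the printed Serpina7 promoter falls between these midpoints.

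Serpina16 and Serpina11 are less studied members of the chromosome 12 cluster. At Serpina16 the RXRα peaks of 586 and 707 lay 3222 and 3133 bp before the start, with RARα at 131 and 136 and RARβ at 149 under RA alone. At Serpina11 the RXRα peaks of 356 and 407 lay 449 and 785 bp after the start. There RARβ had 127 under RA alone, and RARα had 58.4 and 63.1. The highest RARα peaks of the 2 diets lay at different sites. They were 108 on control diet, 5511 bp before the start, and 253 with RA, 4781 bp after it. Serpina12 encodes vaspin, an adipokine, and its highest RXRα peaks scored 347 and 574, with RARα at 119 and 98.3 and RARβ at 116 and 138. The RXRα percentile was higher with RA than on control diet at Serpina16 (95.5 against 93.4), Serpina11 (85.0 against 82.5) and Serpina12 (92.3 against 81.8). They were exceptions, since of the 29 Serpin genes bound by RXRα on both diets the percentile of the best peak was higher with RA for 8 and lower for 21, as at Serpina10 and Serpina7. For RARα it was higher for 15 of 22, and for RARβ for 13 of 16. The same tally over all genes was not made. A percentile also depends on the length of its list. The RARα and RARβ lists were longer with RA (44296 against 35521 peaks and 29467 against 14968), and the RXRα list was shorter (59624 against 61128). No diet shift at Serpins is therefore read from these tallies.

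Among the Serpina3 genes, relatives of antichymotrypsin that respond to inflammation, receptors differed from gene to gene. Serpina3k had RXRα peaks of 479 and 671, which lay 1601 and 1591 bp before its start, and a RARβ peak of 109 there under RA. RARα was called in neither list within 10 kb of Serpina3k. Serpina3m had RXRα peaks of 553 and 513 at 981 and 1050 bp before the start, and RARα peaks of 274 and 455 over the start and the first part of the gene. The RARα peak under RA was 3015 bp wide, and the one under the control diet 661 bp. Serpina3n had its highest RARα score under RA, 508 with a midpoint 75 bp after the start (percentile 96.8), against 226 on control diet (percentile 78.1). Of the 6 Serpin genes with the highest RARα scores under RA, 4 were clade A genes of this cluster (Serpina3n, Serpina1b, Serpina3m and Serpina1d), and the others were Serping1 and Serpinb6a.

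Some peaks were counted for more than 1 Serpin. Serpina3a and Serpina5, the gene of protein C inhibitor, lie beside each other, and the pair of sites between them gave both genes their RXRα scores of 329 and 324. Serpina3m and Serpina3n shared a RARα peak under each diet, and Serpinf1 and Serpinf2 shared peaks of up to 137 between them. Serpinf1, the gene of pigment epithelium-derived factor, had its own peaks around its start, with RXRα at 180 (1722 bp before the start) and 138 (1138 bp after it), RARα at 123 and 136 and RARβ at 71.0 under RA alone. At Serpini1, the gene of neuroserpin, all 6 lists had a peak, with RARα at 238 and 194, RARβ at 118 and 190, and RXRα at 210 and 337. Those peaks lay closer to the start of the neighbouring gene Pdcd10, and RARα alone had a further peak nearest Serpini1 itself, of 85.1 and 63.3. At Serpinb6a, part of the peaks lay closer to Ripk1, but the RARα peaks of 393 and 372 (percentiles 93.0 and 91.1) lay closest to Serpinb6a itself. Serpinb9 had peaks 7562 to 7673 bp after its outermost start, with RARα at 134 and 265, RXRα at 193 and 114 and RARβ at 112 under RA alone. Their region (chr13:33004318-33005047) overlaps the RefSeq promoter window of Serpinb9 (chr13:33004291-33004590), so they lay at another start of the gene.

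The 5 α1-antitrypsin genes had a regular RXRα pattern. Under the control diet each copy had an RXRα peak at its promoter, with midpoints 95, 98, 93, 45 and 139 bp before the start for Serpina1a to Serpina1e and scores of 107, 393, 193, 196 and 259. Serpina1a to Serpina1d also had an RXRα peak 3336 to 3367 bp after the start, with scores of 318, 215, 381 and 345. Under RA, promoter peaks had midpoints 136, 217, 150 and 164 bp before the start of Serpina1a, Serpina1b, Serpina1d and Serpina1e, with scores of 92.2, 367, 289 and 155, and the peak of Serpina1c was centred 551 bp after its start with a score of 56.8. The peaks in the genes scored 167, 607, 282, 185 and 250 under RA, and those of Serpina1a and Serpina1d were 3791 and 3497 bp wide.

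The RARs did not mark the 5 copies alike. RARα was called at the promoters of Serpina1b and Serpina1d under RA, with scores of 485 and 394 and midpoints 31 and 49 bp before the start, and at none of the 5 promoters under the control diet. RARβ was called within 1 kb of the start of Serpina1a, Serpina1b and Serpina1d under RA, with scores of 64.9, 140 and 87.4, and of Serpina1c and Serpina1d under the control diet, with 50.6 and 51.4. A RARβ peak of 92.5 under RA, 4825 bp wide, also covered the start of Serpina1c, although its midpoint lay 1806 bp into the gene. Serpina1e had its RAR peaks from 5011 to 6785 bp before the start instead, reaching 213 for RARβ under RA, beside RXRα peaks of 515 and 338 in the same stretch. Reads were 35 bases long, and near-identical copies share many such words. Of the 266 words of 35 bases in each promoter window, those that also occurred in the window of another Serpin made up 23.3% for Serpina1a, 51.5% for Serpina1b, 28.2% for Serpina1c, 41.4% for Serpina1d and 64.3% for Serpina1e. The study describes the RXRα and RARα reads that it counts as uniquely mapped and does not say so for RARβ. The part of read placement in the differences between copies was not tested.

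**Figure D3:**
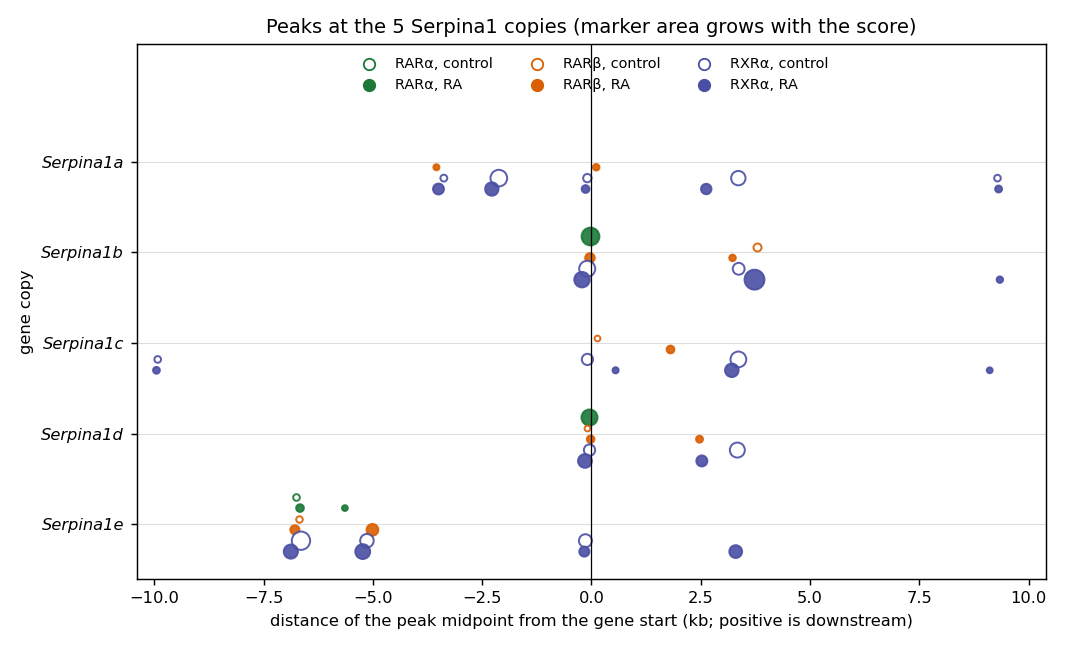
Peaks of the 6 lists around the starts of Serpina1a to Serpina1e, with the distance of the peak midpoint from the start in kb on the horizontal axis (positive is downstream), open circles for the control diet, filled circles for RA, and marker area growing with the score. RXRα peaks recur near the start and 3336 to 3367 bp inside Serpina1a to Serpina1d on control diet, while the RARα promoter peaks of 485 and 394 under RA appear at Serpina1b and Serpina1d alone.

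The samples allow each receptor to be compared between diets. The RARβ list gained the most Serpin genes. With RARβ, 16 Serpin genes were bound under both diets, 10 under RA only (background 13.1% of all genes) and 1, Serpinb6b, under the control diet only (background 2.51%). With every RefSeq start, RARβ bound Serpinb6b on both diets. The 10 were Serpina1a, Serpina3k, Serpina10, Serpina11, Serpina16, Serpinb1a, Serpinb9, Serpine2, Serpinf1 and Serping1, with best RARβ scores from 64.9 to 149. The 10 genes are 15.9% of the family, close to the share over all genes. The RARβ RA list was also the longer one, with 29467 peaks against 14968. When each list was shortened to its 14968 highest-scoring peaks, 17 Serpin genes were bound by RARβ under each diet, with 4 under RA only and 4 under the control diet only, so the gain did not remain at equal list length.

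With RARα, 22 Serpin genes were bound under both diets, 5 under RA only (background 3.88%) and 2 under the control diet only (background 2.46%). Those under RA only were Serpina1b, Serpina1d, Serpinb1a, Serpinb1b and Serpinh1, the last a collagen chaperone whose 2 peaks scored 67.2 and 61.1. Those under the control diet only were Serpina3b and Serpina3c, at 62.1 and 85.0. Without the lettered members of the Serpina1, Serpina3 and clade B copy families, chosen by symbol, 1 gene was left under RA only, Serpinh1. Under the control diet only, 0 were left. Not all members left out are near-identical copies. In the promoter windows of Serpinb1b and Serpina3b, 0 words of 35 bases recurred at another Serpin. With RXRα, 29 were bound under both diets, 1 under RA only (Serpina1f, background 4.13%) and 4 under the control diet only (Serpina3c, Serpina3f, Serpina9 and Serpine3, background 3.72%). The Serpina1f peak scored 51.3 and lay 8390 bp from the start, and the 4 control peaks scored 92.8, 61.5, 92.3 and 204. Apart from Serpine3, the genes that RXRα bound under 1 diet thus had low-scoring peaks.

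Peak by peak, the deposited RXRα lists were the most alike between diets at Serpin genes. A shared peak was one that covered a peak of the other list over 25% or more of both widths. Of 78 RXRα control peaks near Serpin starts, 66 were shared with the RA list (84.6%, 75.0 to 91.0), and 67 of 74 RA peaks with the control list (90.5%, 81.7 to 95.3). Over all peaks within 10 kb of a start these shares were 82.1% and 82.2%. For RARα, 30 of 38 control peaks (78.9%, 63.7 to 88.9) and 30 of 47 RA peaks (63.8%, 49.5 to 76.0) were shared, against 89.0% and 79.2%. For RARβ, 11 of 20 control peaks (55.0%, 34.2 to 74.2) and 11 of 42 RA peaks (26.2%, 15.3 to 41.1) were shared, against 84.3% and 55.6%. The RARβ sites at Serpins were shared between diets less than RARβ sites near starts in general, in both directions and beyond the counting intervals. Over all RARβ peaks, at any distance from a start, the shares were 75.8% and 38.2%, and the second lies inside the Serpin interval. These shares depend on the lists. At equal list length RXRα fell to 63.6% and 66.7% (against 77.3% and 75.0%), RARα had 76.9% and 62.5% (against 79.9% and 87.4%), and RARβ had 45.0% and 42.9% (against 66.3% and 72.9%), so RXRα was no longer the most alike on control diet, while RARβ stayed below its background. With scores of at least 100, the share of RARβ RA peaks in the control list was 9.52%, against 42.7%.

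Between receptors, nearly all RARβ sites at Serpins coincided with an RXRα site. Under RA, 41 of 42 RARβ peaks overlapped an RXRα peak (97.6%, 87.7 to 99.6, against 88.2% of all such RARβ peaks near genes), and on control diet 18 of 20 did (90.0%, 69.9 to 97.2, against 79.4%). When the RXRα list was shortened to its 14968 highest-scoring peaks, with all lists at that length, the shares were 76.2% under RA (against 36.6%) and 30.0% under the control diet (against 20.8%), so the overlap on control diet rested on lower-scoring RXRα peaks. For RARα the shares were 23 of 38 (60.5%, against 68.0%) and 31 of 47 (66.0%, against 68.9%). In the other direction, 56.8% of the RXRα peaks at Serpins overlapped a RARβ peak under RA and 24.4% under the control diet, against 57.6% and 33.7% over all genes. In the deposited lists RARα lay less often on RARβ than on RXRα, with 12 of 38 RARα peaks (31.6%, against 48.3%) on a RARβ peak under the control diet and 27 of 47 (57.4%, against 61.8%) under RA. At equal list length this order turned over, with 69.2% and 43.8% of RARα peaks on RARβ peaks (against 66.6% and 61.4%) and 30.8% and 37.5% on RXRα peaks (against 16.3% and 20.7%).

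Merging overlapping peaks of the 6 lists gave 97 regions at Serpin genes. Of these, 9 (9.28%) were called in all 6 lists, against 21.1% of all merged regions within 10 kb of a start, and 28 (28.9%) were called in 1 list, against 22.2%. RXRα alone accounted for 28 regions (28.9%, against 26.7%), the RARs alone for 19 (19.6%, against 18.3%), and both kinds of receptor for 50 (51.5%, against 55.0%). A pattern of both RXRα lists with RARβ under RA and not under the control diet was seen at 26 regions (26.8%, against 15.3%), among them the Serpinc1, Serpina16 and Serpina3k sites described above. The same pattern for RARα was seen at 10 regions (10.3%, against 5.57%). The reverse for RARβ, with a control peak and none under RA, was seen at 4 (4.12%, against 1.70%). These patterns use the deposited lists, in which RARβ had 29467 peaks with RA and 14968 on control diet. Regions were not merged at equal list length.

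In the deposited lists Serpin peaks lay farther from the start than peaks of genes in general. The median distance was 4648 bp for RARα on control diet and 3570 bp with RA, 2315 and 2471 bp for RARβ, and 3211 and 2879 bp for RXRα. Over all genes the medians were 869 and 1369 bp, 268 and 785 bp, and 2579 and 2452 bp. The RXRα lists thus differed least from the background. For RARα the gap narrowed without the lower-scoring peaks, as its medians were 331 and 260 bp at equal list length (against 259 and 285 bp) and 761 and 607 bp with scores of at least 100 (against 323 and 572 bp). RARβ kept a gap at equal length, with 2315 and 3121 bp against 268 and 313 bp, and with scores of at least 100 its 3 control peaks had a median of 495 bp, against 158 bp. Before the start lay 61.0% and 57.7% of the RXRα pairs of peak and gene (against 49.7% and 48.7% over all genes), 35.7% and 41.2% of the RARα pairs (against 46.9% and 47.8%) and 42.9% and 46.7% of the RARβ pairs (against 53.6% and 49.6%).

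**Figure D4:**
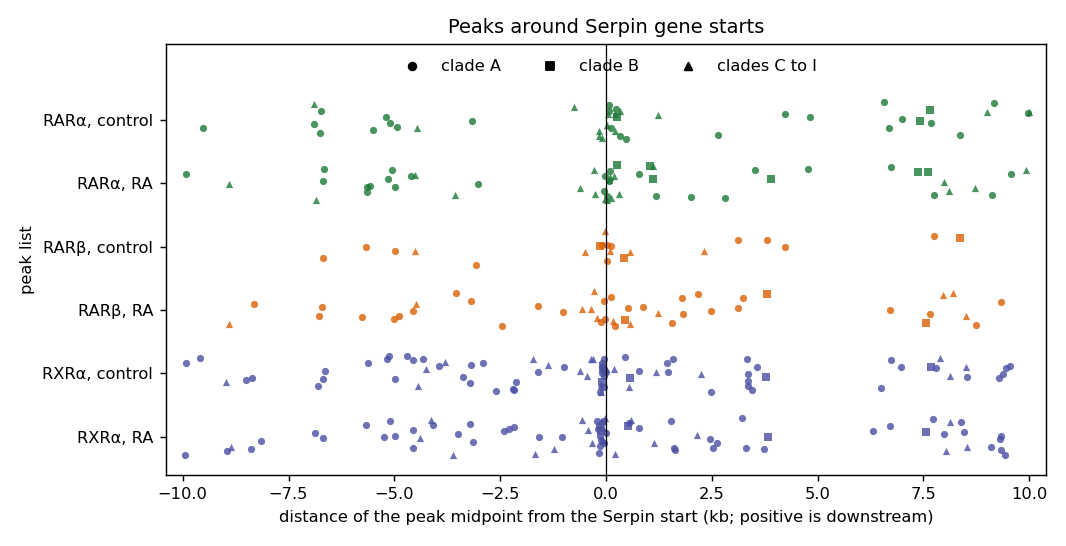
Distance of each peak midpoint from the Serpin start in kb (horizontal axis, positive is downstream) in the 6 lists, with the marker shape giving the clade; the vertical spread within a list separates points and carries no value. Peaks gather at the start in every list, and the RXRα lists hold 82 and 78 peak and gene pairs against 21 in the RARβ control list.

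Serpin peaks also differed in score from the other peaks near starts. The median score at Serpins was 85.1 and 114 for RARα, against 164 and 164 for all peaks within 10 kb of a start in the same lists. For RARβ it was 65.4 and 100.1, against 90.0 and 115. For RXRα it was 196 and 168, against 136 and 144. The family's RXRα peaks thus scored above the middle of the peaks near genes, and its RARα and RARβ peaks below it.

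The limit of 10 kb decided a few calls. Just inside it lay Serpina9 at 9582 bp (RXRα control, score 92.3), Serpina1f at 8390 bp and Serpinb6b at 8362 bp (RARβ control, 57.6). Just outside lay Serpina3j at 10625 bp (RXRα RA, 56.7), Serpina3i at 14399 bp (RXRα control, 409) and Serpinb5 at 14530 bp (RXRα control, 69.0). Inside the gene spans but beyond the limit from the outermost start, Serpinb6b held RXRα peaks of 911 and 822, which were named after their values were seen. The RefSeq promoter window of Serpinb6b lies farther in (chr13:32965011-32965310), under its RARβ control peak. With every RefSeq start, Serpinb6b was bound in both RXRα lists, both RARβ lists and the RARα RA list. Serpina3j was then bound in both RXRα lists.

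Receptor hexamers were more frequent in Serpin promoters than in all promoters, and clades that differed in binding did not differ in them. Of the 54 Serpin genes in the RefSeq promoter table, 31 (57.4%) held at least 1 of the hexamers in the 250 bases before a start, against 39.9% of all 17492 protein-coding genes in the table. Clade B, with few peaks, stood at 57.7%, and the other clades at 57.1%. A direct repeat spaced by 0 to 5 bases occurred in 1 Serpin gene, Serpina1f (1.85%, against 0.577%), whose printed promoter had no peak within 1 kb in any list. Serpind1, with peaks over its promoter in all 6 lists, held none of these letters there. Such a match describes letters in a window and is not a measured site.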

How the data were processed

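The authors aligned single-end reads of 35 bp to mm10 with Bowtie and called peaks with MACS, per the study's methods, 1 list per library with no sign of pooling. Each deposited peak has the caller's score, which scales with the -log10 of a p-value, has no normalization between lists and was at least 50. It was used to rank and filter peaks within a list. The study states uniquely mapped read totals for RXRα and RARα without naming the diet, and no total for RARβ, so the depth of each list is unknown. The lists held from 14968 to 61128 peaks.

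Gene spans came from the RefSeq gene table of GRCm38.p6. The strand came from the RefSeq promoter table for 54 Serpin genes and by symbol from GENCODE M1 for the other 9 (17492 and 4044 among all genes). Where both gave a strand for a gene, they differed for 39 of 14743 genes and for 0 Serpins. Of 21887 protein-coding genes, 21536 had a strand, and the rest were left out. Counts used the outermost start, and other starts entered them only in the setting with every RefSeq start. The labels gave receptor and diet as groups. Values were counts beside the same counts over all genes, with Wilson 95% intervals, and no test, since each group was 1 library. Peaks were shared at 25% of the width of each, and the 10 kb limit is that of the study's methods. Values are given for the 25 members with the highest peak score, for members bound under 1 diet, for those in all lists or none, and for 3 on each side of the limit, except that 1 member is counted in the family totals and its own values are not reported here. The members and lists were chosen with earlier results of these data known. Scripts were tested on simulated peaks. Python 3.11.15, pandas 2.3.3, numpy 2.4.6, scipy 1.17.1 and matplotlib 3.10.9 were used. The input library was not used here, and sequence at peaks away from promoters was not analysed here.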

Additional observations from a re-analysis of the deposited data

Results flagged for a closer look

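The number of bound Serpin genes moved in opposite directions between diets for different receptors. RA minus control was 3 genes for RARα and 9 for RARβ, and -3 for RXRα. Peaks near Serpin starts moved likewise, by 9 for RARα and 22 for RARβ, and by -4 for RXRα. Over all genes the bound share went from 61.9% to 63.3% for RARα, from 44.1% to 54.7% for RARβ and from 61.3% to 61.7% for RXRα. At equal list length RARβ bound 17 Serpin genes under each diet, RARα 10 and 14, and RXRα 20 and 17. Each value rests on 1 library per receptor and diet, and the difference between receptors was not tested.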

How the results depend on the processing

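Of 228 recomputed values, 131 stayed within 1.5 times the reported count or distance, or within the counting interval of the reported share, and 97 moved, all given here as control then RA. No paired analysis was possible because each receptor and diet had 1 library. What moved each value was not tested beyond what each setting leaves out.

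Within 1 kb, bound genes were 15 and 16 for RARα and 9 and 13 for RARβ, and peaks 16 and 17 for RARα, 10 and 14 for RARβ, and 26 and 24 for RXRα. RARα then had 3 genes under RA only, RARβ 4 under the control diet only and RXRα 0 under RA only. The share of RA peaks also in the control list was 82.4% for RARα and 100% for RXRα, and the share of RAR peaks on RXRα peaks was 87.5% and 88.2% for RARα and 100% and 100% for RARβ. Within 5 kb, RARα peaks were 23 and 31, control-only genes 1 for RARα and 0 for RARβ, and median distances 269 and 607 bp, 495 and 1226 bp, and 1456 and 1230 bp.

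With scores of at least 100, bound genes were 15 for RARα on control diet and 3 and 17 for RARβ, and peaks 19 and 26 for RARα and 3 and 21 for RARβ. Under control only, RARα had 1 gene, RARβ 0 and RXRα 2, and under RA only RXRα had 0. Median distances were 761 and 607 bp for RARα and 495 bp for RARβ on control diet. Shares were 9.52% of RARβ RA peaks in the control list, 15.8% of RARα control peaks on RARβ peaks, and 100% and 100% of RARβ peaks on RXRα peaks.

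At equal list length, bound genes were 10 and 14 for RARα, 17 for RARβ with RA, and 20 and 17 for RXRα, and peaks 13 and 16, 21 with RA, and 22 and 21. RARα had 0 control-only genes, RARβ 4 under RA only and 4 under control only, and RXRα 2 under RA only. RARα median distances were 331 and 260 bp. Shares between diets were 42.9% for RARβ RA peaks and 63.6% and 66.7% for RXRα. On RXRα peaks lay 30.8% and 37.5% of RARα and 30.0% and 76.2% of RARβ peaks, and 69.2% of RARα control peaks lay on RARβ peaks. 

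The 35 lettered members of the Serpina1, Serpina3, Serpinb1, Serpinb3, Serpinb6 and Serpinb9 families were left out by symbol, not by sequence. This left 28 members, with 15 and 16, 8 and 15, and 19 and 17 bound. Peaks were 24 for RARα on control diet, 10 and 24 for RARβ, and 46 and 41 for RXRα. RARα had 1 gene under RA only and 0 under control only, RARβ 0 under control only, and RXRα 0 under RA only and 2 under control only.

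With any base of a peak in reach, RXRα had 0 genes under RA only. With the nearest start only, RARβ had 2 under control only and RXRα 2 under RA only. With every RefSeq start, a setting added after the data were seen, RARβ had 0 under control only. With 1 bp of overlap, 100% of RARβ RA peaks lay on RXRα peaks. With 50% overlap the shares were 73.1% and 77.0% between RXRα lists, 10.5% of RARα control peaks on RARβ, and 55.0% and 83.3% of RARβ on RXRα.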
